A study of Rattus norvegicus with 6 samples.

Results

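AP-1 is a family of dimeric transcription factors built from Fos, Jun, ATF and Maf proteins, which pair through a leucine zipper and bind DNA through a basic region. All probe sets whose array annotation gives Fos, Fosb, Fosl1, Fosl2, Jun, Junb, Jund, Atf3, Maff or Mafk as the sole gene symbol were taken, whatever their values. This gave 16 of 31042 probe sets, for all 10 genes. The arrays had been hybridised with RNA of whole rat pituitaries in organ culture, with 3 samples given 10 nM GnRH and 3 control samples. GnRH, the gonadotropin-releasing peptide of the hypothalamus, drives the gonadotropes to make and secrete LH and FSH. Age, sex and strain of the animals, culture medium and treatment length were not given in the sources used. The question was how transcript levels of a whole gland differ once the peptide is added.

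Fos proteins do not pair with each other and need a Jun partner, whereas Jun proteins can pair with both Fos and Jun proteins. The Fos-Jun dimer recognises the TPA response element and, less strongly, the cyclic AMP response element, to which ATF proteins also bind. Many AP-1 genes are immediate early genes, transcribed within minutes of a stimulus through MAP kinases and then silenced, so their mRNA is short-lived. Jund is the exception in its family, being made at a steady level in many resting cells. In mouse gonadotrope cell lines GnRH is known to induce several Fos and Jun genes, and AP-1 sites contribute to transcription of the mouse Gnrhr and Fshb genes.

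Control 3 stood apart from the other controls. Median intensities lay between 64.7 and 65.9 on the GnRH arrays and between 64.5 and 67.0 on the control arrays, on the deposited linear scale. Xist, the RNA of the inactive X chromosome, had log2 values of 9.73, 9.16 and 9.49 on the GnRH arrays, 9.77 on control 3, and 3.91 and 3.66 on controls 1 and 2. The Y-linked Eif2s3y divided the arrays in the mirror image, with 2.42, 2.29 and 2.06 on the GnRH arrays, 2.76 on control 3, and 6.48 and 6.56 on controls 1 and 2. The difference of each member gene is therefore given with and without control 3, by some or all of its probe sets. Without control 3, all GnRH arrays are Xist-high and Eif2s3y-low and both remaining controls the reverse. In every value without control 3 the treatment and this sex-linked division thus cannot be told apart. With all controls they still coincide in part, since only control 3 shares the Xist and Eif2s3y levels of the GnRH arrays. The pituitary markers were present, since 11 of 11 measured endocrine markers, among them Gh1, Prl, Lhb and Cga, had means at or above the median of all probe sets. Titles number the samples 1 to 3, while every GnRH sample's description carries the number 1, and no label names separate cultures or animals. All p-values below thus rest on a spread between arrays that, among the GnRH arrays and between controls 1 and 2, may be technical only. Across all controls the spread includes the Xist and Eif2s3y difference of control 3, so there it is more than technical. In whole organs, fewer cells of a type and less RNA per cell cannot be told apart.

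Promoters of the members are shown here because 2 of them carry a full cyclic AMP response element, spelled TGACGTCA, and because Jund, Junb and Fosl2 are among the members described most closely below. Sequences are from RefSeq on the GRCr8 build, where 7 of the 10 genes were matched (Fosb, Fosl1, Fosl2, Maff, Mafk, Jund and Junb), and run 5′ to 3′ on the gene's strand over the 250 bases before its start. Capitals mark the full element or its 5-base core, TGACG or CGTCA. Jund lies at chr16:18769772-18770021 on the minus strand, Junb at chr19:40080876-40081125 on the plus strand, Fosl2 at chr6:30039270-30039519 on the minus strand and Maff at chr7:112792537-112792786 on the plus strand.
Jund: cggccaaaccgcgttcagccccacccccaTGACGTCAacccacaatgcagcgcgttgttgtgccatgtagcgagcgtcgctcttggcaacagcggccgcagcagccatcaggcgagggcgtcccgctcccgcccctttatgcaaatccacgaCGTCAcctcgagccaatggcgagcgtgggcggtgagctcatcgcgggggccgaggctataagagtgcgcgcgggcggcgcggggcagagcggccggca
Junb: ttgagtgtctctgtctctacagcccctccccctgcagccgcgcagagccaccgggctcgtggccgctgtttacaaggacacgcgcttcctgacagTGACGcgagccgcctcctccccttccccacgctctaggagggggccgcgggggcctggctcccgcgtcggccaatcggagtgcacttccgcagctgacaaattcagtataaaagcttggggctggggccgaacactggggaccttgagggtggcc
Fosl2: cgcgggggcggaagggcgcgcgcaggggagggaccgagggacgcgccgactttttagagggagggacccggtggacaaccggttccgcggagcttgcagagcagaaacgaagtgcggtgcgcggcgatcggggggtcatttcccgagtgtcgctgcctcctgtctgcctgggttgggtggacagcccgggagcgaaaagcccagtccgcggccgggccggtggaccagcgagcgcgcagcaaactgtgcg
Maff: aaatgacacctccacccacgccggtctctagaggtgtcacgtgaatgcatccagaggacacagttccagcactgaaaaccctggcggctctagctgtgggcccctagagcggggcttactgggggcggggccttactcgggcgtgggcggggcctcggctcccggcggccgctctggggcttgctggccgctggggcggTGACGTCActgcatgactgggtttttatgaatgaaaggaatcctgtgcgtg

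The full element begins at base -221 in the Jund window and at base -51 in the Maff window, counted back from -1 at the last base before the start. Of the 7 members, 2 hold it, against 1.59% of 33469 RefSeq promoters cut to the same length. The core, which the full element contains, was found in 5 of the 7 (Fosl1, Maff, Mafk, Jund and Junb), against 18.2% of all promoters. Fosl2 and Fosb had no match to either spelling. The starts used for Fosb and Mafk were not at the edge of the annotated gene, so these windows may not be their only promoters. The TPA response element, searched as TGACTCA and TGAGTCA, was in 0 of the 7 windows and in 4.05% of all promoters. The CArG box, the motif of serum response factor, was in 0 of 7 and in 1.5% of all. Jund and Junb each hold a CCAAT box, at -86 and -85, searched as CCAAT and ATTGG and found in 34.0% of all promoters. The SP1 box, searched as GGGCGG and CCGCCC, was in 5 of the 7 and in 30.5% of all promoters. The Fosb window was 43.6% GC and the other windows 62% to 70.4%, against a mean of 52.2% over all promoters. TGACGTCA and its core hold the letters CG, and the part of base composition in these counts was not tested. These matches describe letters in 1 window a gene and show no binding.

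In the comparison of GnRH with control cultures, 6 probe sets lay above every control on all GnRH arrays, 1 of Jund (1393138_at), both of Fosl2, 2 of Jun and that of Junb. For those of Jun and Junb, and for Fosb, the GnRH mean lay within 0.3 of the mean of controls 1 and 2 on the log2 scale and well above control 3. The other Jund probe sets overlapped or lay below the controls. Fosl1 and Atf3 lay below every control, and both Fos probe sets, Maff and Mafk overlapped between the groups. None of the 16 probe sets passed the test used throughout, limma with Benjamini-Hochberg adjustment over all 31042 probe sets and a threshold of 0.05, while 0.464% of all probe sets passed it. At a threshold of 0.10, 1 of the 16 passed, Jund 1393138_at, against 1.1% of all probe sets. At an unadjusted p under 0.05, 10 of the 16 differed, 7 higher and 3 lower with GnRH, against 12.3% of all probe sets (6.6% higher and 5.66% lower). The groups did not overlap in 9 of the 16, 6 higher and 3 lower with GnRH, against 16.7% of all probe sets (7.06% higher and 9.62% lower). The log2 fold change was above 0 in 11 of the 16, against 42.6% of all probe sets. Probe sets of 1 gene share transcripts, so these counts are not counts of independent genes. The median log2 fold change, GnRH over control, was 0.35 over the 16 probe sets and 0.22 over the 10 genes, against -0.025 over all probe sets. A gene stands for 1 value by its probe set with the highest mean.

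**Figure D1:**
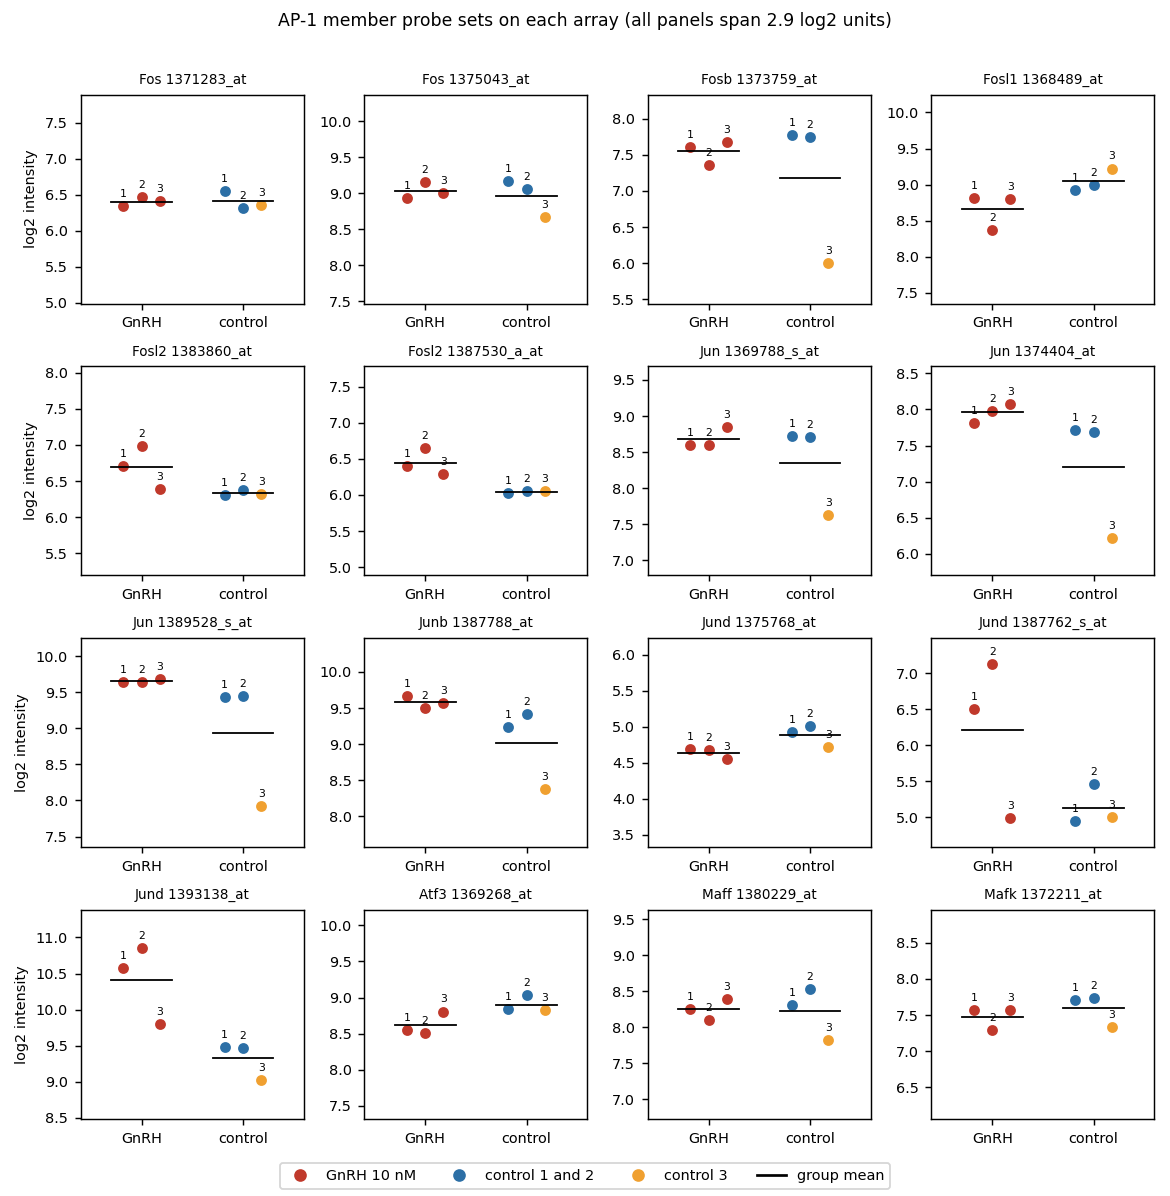
Log2 intensity of each of the 16 member probe sets (vertical axis, every panel spanning the same range) on the 3 GnRH arrays (red) and the 3 control arrays (blue for controls 1 and 2, orange for control 3), with the sample number above each point and a black line at the group mean. The orange point lies far below all others for Fosb, the 3 Jun probe sets and Junb, and the red points lie above all controls for 6 probe sets, both of Fosl2, Jun 1374404_at and 1389528_s_at, Junb and Jund 1393138_at.

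Among the Jun genes, Jund had the largest difference of all members. Jund encodes JunD, the Jun protein that restrains growth in many cells. Probe set 1393138_at of Jund had log2 values of 10.58, 10.85 and 9.80 on the GnRH arrays, against 9.48, 9.47 and 9.02 on the control arrays. All 3 GnRH arrays lay above all controls, though GnRH 3 was closer to the controls than to the other GnRH arrays. The log2 fold change was 1.08 ± 0.23 (SE), or 2.12-fold, with a 95% interval of 0.57 to 1.6 (limma adjusted p = 0.0835). Its p-value ranked 281 among the 31042. Without control 3 the log2 fold change of Jund 1393138_at was 0.93 ± 0.23 and passed the threshold (limma adjusted p = 0.0366), in a fit where GnRH and the Xist division coincide, and against control 3 alone it was 1.38 ± 0.31 (limma adjusted p = 0.0921). Without GnRH 3 it was 1.39 and also passed (limma adjusted p = 0.0140).

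The other Jund probe sets did not all run the same way. Probe set 1387762_s_at, whose suffix marks probes that can match more than 1 transcript, had 6.50, 7.13 and 4.99 on the GnRH arrays, against 4.95, 5.46 and 5.00 on the control arrays. GnRH 1 and GnRH 2 lay above all controls, but GnRH 3 lay among them, and the log2 fold change of 1.07 ± 0.41 carried this spread (limma adjusted p = 0.335). Without GnRH 3 this Jund probe set passed the threshold at 1.68 (limma adjusted p = 0.0165), which made 2 of 16 member probe sets, both of Jund, against 0.209% of all. Without GnRH 2 it was 0.61 (limma adjusted p = 0.728). Probe set 1375768_at of Jund had 4.69, 4.67 and 4.55 on the GnRH arrays, against 4.93, 5.01 and 4.72 on the control arrays. It was thus slightly lower on every GnRH array, by -0.25 ± 0.10 (limma adjusted p = 0.357), and without control 3 it passed the threshold at -0.33 (limma adjusted p = 0.0485), with the same limit. Both of these probe sets had means below the median of all probe sets, and without detection calls it cannot be said whether they lay above background.

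Jun encodes c-Jun, the strongest transcriptional activator of its family. The brightest Jun probe set, 1389528_s_at, had log2 values of 9.64, 9.64 and 9.69 on the GnRH arrays, against 9.43, 9.45 and 7.92 on the control arrays. Jun was thus within a narrow range on 5 arrays and low on control 3, which lay 2.87-fold below the mean of the other controls. The log2 fold change was 0.72 ± 0.32 (limma adjusted p = 0.405), with 0.22 ± 0.083 without control 3 (limma adjusted p = 0.136) and 1.74 ± 0.11 against control 3 alone (limma adjusted p = 0.000733). Jun 1374404_at behaved alike, with 7.82, 7.98 and 8.08 on the GnRH arrays against 7.72, 7.68 and 6.22 on the control arrays. Centred on their own means, those 2 Jun probe sets differed by a root mean square of 0.070 over the 6 arrays. Jun 1369788_s_at had 8.60, 8.59 and 8.85 on the GnRH arrays, against 8.72, 8.70 and 7.63 on the control arrays. Here the GnRH arrays overlapped controls 1 and 2, and the log2 fold change of 0.33 ± 0.24 turned to -0.031 without control 3. Neither value passed (limma adjusted p = 0.616 and 0.875).

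Junb encodes JunB, which can oppose c-Jun and is also an immediate early gene. It had log2 values of 9.67, 9.51 and 9.56 on the GnRH arrays, against 9.24, 9.42 and 8.38 on the control arrays. All GnRH arrays lay above all controls, with a log2 fold change of 0.57 ± 0.22, or 1.48-fold (limma adjusted p = 0.329). Without control 3 the Junb difference was 0.25 ± 0.095 (limma adjusted p = 0.135), and against control 3 alone it was 1.20 ± 0.12 (limma adjusted p = 0.00557). Without control 3 the 95% interval for Junb ran from 0.039 to 0.46.

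Among the Fos genes, Fosl2 was the only one whose GnRH values lay above every control. Fosl2 encodes Fra-2, a Fos-related protein that lacks the strong activation domain of c-Fos and is made later and for longer. Probe set 1387530_a_at of Fosl2 had 6.41, 6.65 and 6.29 on the GnRH arrays, against 6.02, 6.05 and 6.05 on the control arrays. The controls were nearly equal, control 3 included, and the log2 fold change was 0.41 ± 0.10, or 1.33-fold, with a 95% interval of 0.18 to 0.63 (limma adjusted p = 0.141). It passed the threshold without control 3, where GnRH and the Xist division again coincide, at 0.41 (limma adjusted p = 0.0464), and was 0.40 against control 3 alone (limma adjusted p = 0.323). Fosl2 1383860_at had 6.71, 6.98 and 6.39 on the GnRH arrays, against 6.30, 6.37 and 6.31 on the control arrays. GnRH 3 lay just above the highest control there, and the log2 fold change was 0.37 ± 0.13 (limma adjusted p = 0.310). In both Fosl2 probe sets and in Jund 1393138_at and 1387762_s_at, GnRH 2 was the highest and GnRH 3 the lowest of the GnRH arrays. Jund 1375768_at did not have this order, being highest on GnRH 1. GnRH 2 was the highest of all 6 arrays in 4 of the 16 member probe sets, against 14.3% of all probe sets. How many of all probe sets have this order of the GnRH arrays was not counted.

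Fosb, which encodes the early-induced FosB and its truncated form, varied most between controls. It had log2 values of 7.60, 7.36 and 7.68 on the GnRH arrays, against 7.77, 7.75 and 6.002 on the control arrays. Control 3 was 3.39-fold below the mean of the other controls, a difference that only 0.013% of all probe sets exceeded in that direction. The Fosb log2 fold change was 0.37 ± 0.38 (limma adjusted p = 0.723). It turned to -0.21 ± 0.11 without control 3 (limma adjusted p = 0.233) and was 1.55 ± 0.14 against control 3 alone (limma adjusted p = 0.00449).

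Fos encodes c-Fos, the founding member and the classical marker of an acute stimulus. Its brighter probe set, 1375043_at, had 8.93, 9.16 and 8.999 on the GnRH arrays, against 9.16, 9.06 and 8.67 on the control arrays. The groups overlapped, and the difference of 0.067 ± 0.13 in Fos had a 95% interval of -0.22 to 0.36 (limma adjusted p = 0.866). On the other Fos probe set, 1371283_at, all 6 values lay between 6.32 and 6.55, with a difference of -0.0070 ± 0.094 and a 95% interval of -0.22 to 0.20 (limma adjusted p = 0.984). With all controls, both intervals include 0. Without control 3 the differences were -0.079 for Fos 1375043_at and -0.033 for Fos 1371283_at (limma adjusted p = 0.640 and 0.862). Against control 3 alone they were 0.36 and 0.044.

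Fosl1 encodes Fra-1, which like Fra-2 lacks the c-Fos activation domain. It had log2 values of 8.81, 8.37 and 8.80 on the GnRH arrays, against 8.93, 8.99 and 9.22 on the control arrays. Every GnRH array lay below every control, with a log2 fold change of -0.39 ± 0.13 and a 95% interval of -0.68 to -0.096 (limma adjusted p = 0.278). Unlike Jun, Junb and Fosb, Fosl1 was highest on control 3, and its difference was -0.30 without control 3 (limma adjusted p = 0.175) and -0.56 against control 3 alone (limma adjusted p = 0.225).

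Atf3 encodes a stress-induced factor that as a homodimer represses genes with cyclic AMP response elements. It had log2 values of 8.55, 8.51 and 8.81 on the GnRH arrays, against 8.84, 9.03 and 8.83 on the control arrays. Every GnRH array lay below every control, GnRH 3 by a narrow margin, and the log2 fold change was -0.28 ± 0.11 (limma adjusted p = 0.333). The Atf3 difference was -0.31 without control 3 (limma adjusted p = 0.111) and -0.20 against control 3 alone (limma adjusted p = 0.667).

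Maff and Mafk encode small Maf proteins, which lack an activation domain and work as partners of CNC factors such as Nrf2. Maff had 8.25, 8.10 and 8.40 on the GnRH arrays, against 8.32, 8.54 and 7.83 on the control arrays. Mafk had 7.57, 7.29 and 7.57 on the GnRH arrays, against 7.71, 7.73 and 7.33 on the control arrays. Both overlapped between the groups. The differences were 0.023 ± 0.16 for Maff, with a 95% interval of -0.34 to 0.38 (limma adjusted p = 0.968), and -0.11 ± 0.13 for Mafk, with a 95% interval of -0.40 to 0.17 (limma adjusted p = 0.750). Without control 3, Maff had a difference of -0.18 and Mafk of -0.25 (limma adjusted p = 0.340 and 0.170). Against control 3 alone they had 0.42 and 0.15 (limma adjusted p = 0.252 and 0.787).

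**Figure D2:**
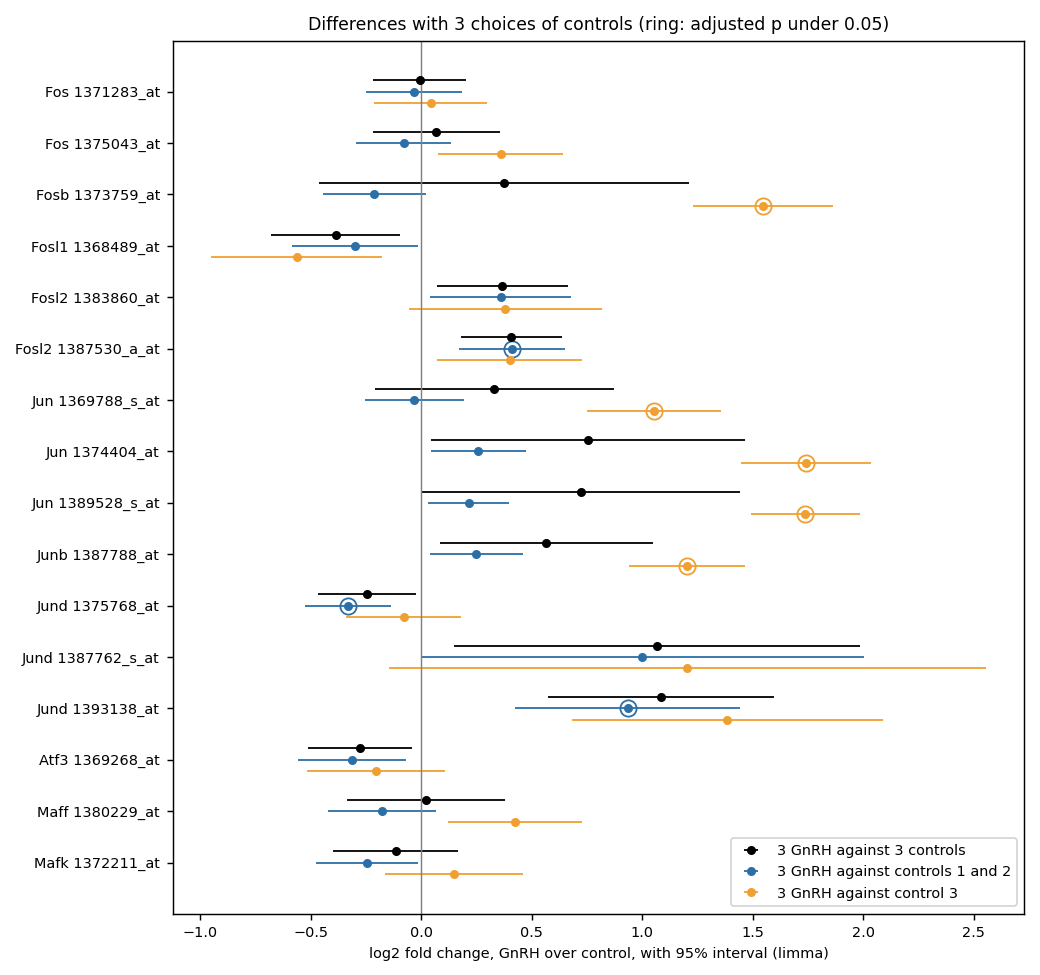
Log2 fold change, GnRH over control, with 95% interval (limma) for each member probe set, with all 3 controls (black), controls 1 and 2 (blue) or control 3 alone (orange); a ring marks an adjusted p under 0.05. The Jun probe sets, Junb and Fosb are ringed only against control 3, from 1.05 to 1.74, whereas Fosl2 lies between 0.36 and 0.41 and Jund 1393138_at between 0.93 and 1.38 in all 3 fits.

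The choice of controls thus divided the members. Against control 3 alone, which assumes that this lone array varies like the GnRH arrays, 5 of 16 member probe sets passed the threshold, the 3 of Jun with Junb and Fosb, against 0.854% of all probe sets. Without control 3, 3 of 16 passed, 2 of Jund in opposite directions and 1 of Fosl2, against 7.44% of all probe sets. In that fit GnRH and the division by Xist and Eif2s3y coincide and cannot be told apart. When arrays were weighted by their fit, with control 3 lowest at 0.298, 4 of 16 passed, 2 of Jund, 1 of Fosl2 and that of Atf3, against 9.73% of all probe sets. Controls 1 and 2 had weights of 0.749 and 2.72, so GnRH and the same division largely coincide there too. No member probe set passed both against control 3 alone and without it. These fits share the GnRH arrays and are therefore not separate checks of each other.

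Control 3 was the lowest of the 6 arrays for 8 of the 16 member probe sets, those of Jun, Junb, Fosb and Maff with 1 each of Fos and Jund, against 20.9% of all probe sets. It was over 0.4 below the mean of controls 1 and 2, on the log2 scale, in 8 of 16, against 3.69% of all probe sets. Fos 1375043_at (-0.44) and Jund 1393138_at (-0.45) lay just past this cut and Mafk (-0.39) just short of it. Across the table, 64 probe sets lay over 0.9 below on control 3, and 5 of them were members. The cut of 0.9 was set after the values were seen, and Junb, at -0.95, lay just past it. The count of members past it is therefore a description only. The GnRH arrays of these 5 member probe sets were close to controls 1 and 2, within -0.21 to 0.26. Control 3 otherwise resembled the GnRH arrays, with Pearson correlations of 0.988 to 0.991 over all probe sets, against 0.983 with control 1 and 0.986 with control 2. In Jun, Junb and Fosb control 3 stood apart from the GnRH arrays as well as from the other controls.

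**Figure D3:**
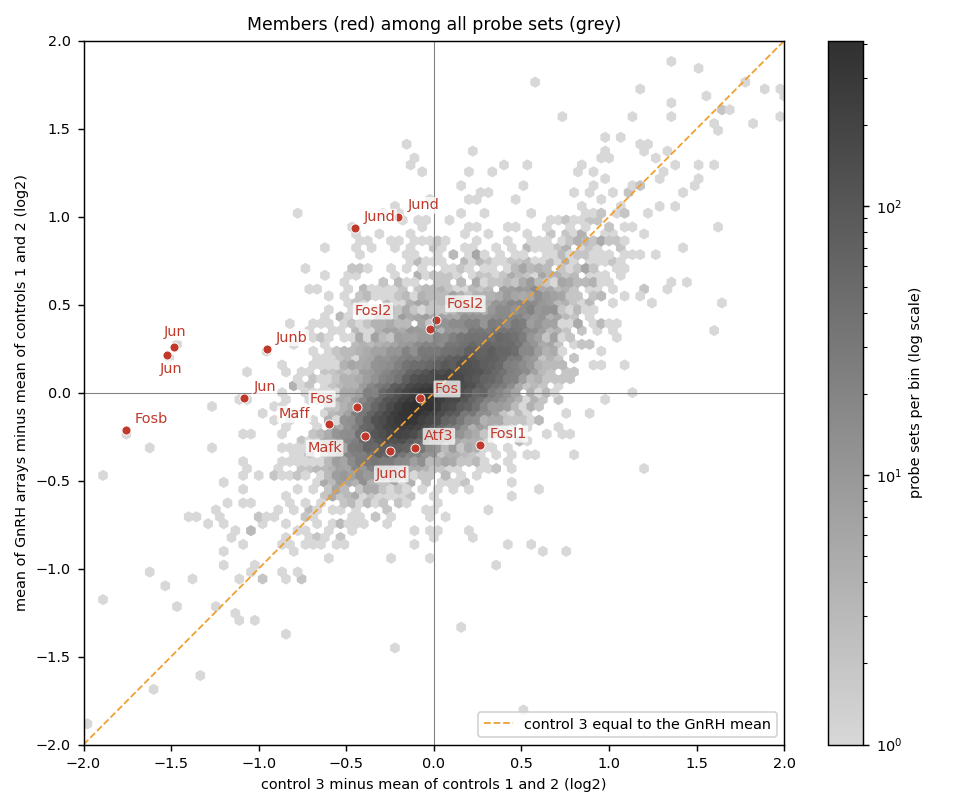
Horizontal axis, control 3 minus the mean of controls 1 and 2; vertical axis, GnRH mean minus that same mean of controls 1 and 2, both in log2 units, for the members (red, 1 point a probe set) and for all probe sets as shaded bins on a log scale; 15 probe sets lie outside the axes. The bulk of probe sets follows the dashed line where control 3 equals the GnRH mean, whereas Jun, Junb and Fosb lie far to the left at -1.76 to -0.95, at heights of -0.21 to 0.26. Both axes subtract the same mean of controls 1 and 2, which by itself spreads points along that line.

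Markers of other cell types were compared over the same arrays, as summed linear intensities. The fibroblast and pericyte markers, 7 of 7 measured and 0 of them past the threshold, summed to 1155, 1225 and 916 on the GnRH arrays, against 1257, 1300 and 939 on the control arrays. Their log2 fold changes ran both ways, with 0.61 for Col1a2, 0.39 for Col3a1, 0.11 for Pdgfrb and 0.060 for Col1a1. Dcn had -0.63, Lum -0.54 and Pdgfra -0.51. Red blood cell markers, 3 of 3 measured and 0 changed, summed to 1986, 2478 and 1559 on the GnRH arrays, against 2922, 2540 and 1319 on the control arrays. Both sums were lowest on control 3 among the controls and on GnRH 3 among the GnRH arrays. Jund 1393138_at was lowest on both, whereas Jun, Junb and Fosb shared only the low control 3 and Fosl2 only the low GnRH 3. The red blood cell sum was mostly Hbb. Control 3 minus the mean of controls 1 and 2, on the log2 scale, was -1.19 for Hbb, -0.15 for Alas2 and -0.015 for Slc4a1. No marker was listed at 0 on any array. Macrophage and leukocyte markers, 8 of 8 measured, summed to 1378, 1298 and 1568 on the GnRH arrays, against 1243, 1381 and 1531 on the control arrays, and endothelial markers, 6 of 7 measured, to 655 to 689 on the GnRH arrays and 632 to 658 on the control arrays. Folliculostellate and stem-like cell markers, 5 of 6 measured, summed to 1455, 1211 and 1378 on the GnRH arrays, against 1561, 1848 and 1959 on the control arrays. These markers did not run alike, with log2 fold changes of -1.97 for Gfap, -0.30 for Vim, -0.10 for Aldh1a1, 0.15 for S100b and 0.018 for Sox2. Posterior lobe markers, 4 of 4 measured, summed to 499, 576 and 390 on the GnRH arrays, against 506, 567 and 533 on the control arrays. Here too the genes ran both ways, with log2 fold changes of -0.57 for Avp, -0.43 for Oxt, 0.45 for Nefl and 0.094 for Nefm. Among all these markers 0 passed the threshold. Of the endocrine markers 1 passed, Gnrhr, and their sum was 53438, 56355 and 55954 on the GnRH arrays, against 49782.5, 49917 and 54926 on the control arrays. The part of these cells in the members' values was not tested.

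The genes whose profiles over the 6 arrays were most like a member's were sought among 11846 probe sets with 1 gene symbol and a mean at or above the median. Likeness was the root mean square difference of log2 values, each centred on its own mean. Jund 1393138_at was closest to Ptms (0.17), Pitx1 (0.17), a pituitary homeobox factor, and Nfic (0.20). Ptms and Nfic rose with GnRH in the same test (log2 fold changes of 0.99 and 1.11), and Pitx1 did not pass at 0.80. Junb was closest to Zfp574, Midn and the ATF family gene Atf5, at 0.11 each, all 3 lowest on control 3. Fosl2 1383860_at was closest to Pmepa1 (0.049), Myh14 (0.058) and the neurofilament gene Nefl (0.061). For Fos 1375043_at, Nefm, Cbfa2t3 and Pkdcc lay at 0.041 to 0.049, and for Atf3, Atf7ip, Tbc1d1 and Ankrd50 at 0.035 to 0.053. The Fos and Atf3 profiles themselves varied little, with root mean squares of 0.168 and 0.179 about their own means. These are the nearest of many candidates over 6 arrays, given as a description. They were chosen for likeness to the member's own profile. A low control 3 or a rise with GnRH among them thus follows from the choice. Nefl and Nefm are also posterior lobe markers of the list above.

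Other genes of the AP-1 system were counted from 5 lists drawn from general knowledge, each gene by its brightest probe set. The other bZIP relatives of AP-1 had a median log2 fold change of 0.048, and 0 of 14 measured passed the threshold, with 1 at an unadjusted p under 0.05, against 13.2% of all named genes. That gene was Nfe2l2, encoding Nrf2, with 8.13, 7.78 and 8.11 on the GnRH arrays against 8.21, 8.42 and 8.54 on the control arrays (-0.38, limma adjusted p = 0.247). Batf, Batf3 and Nfe2l1, the next by p-value, had log2 fold changes of 0.14, 0.23 and 0.11. In the list of kinases and serum response factors that act upstream of AP-1 genes, 0 of 16 passed and 4 (25% of them) had an unadjusted p under 0.05, against the same 13.2%, with a median of -0.041. These were the protein kinase C gene Prkcd (-0.25), Srf (0.32), Mapk14 (0.22), which encodes p38 alpha, and Map2k2 (0.28), which encodes MEK2, with limma adjusted p-values from 0.273 to 0.376. Of 5 measured genes of AP-1 protein turnover and corepression, 0 passed and 2 (40%) had an unadjusted p under 0.05, again against 13.2%. Those were Cop1, a ubiquitin ligase for c-Jun, at 0.25 and the glucocorticoid receptor gene Nr3c1 at -0.25, while Ncor1 and Fbxw7 had 0.037 and 0.031. The median of these 5 was 0.031, against -0.0089 over all 14217 named genes.

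The median log2 fold change of genes known as AP-1 targets was -0.14 over 26 measured, with 9 above 0. In this list 1 rose and 1 fell with GnRH, with 12 (46.2%) at an unadjusted p under 0.05, against 13.2% of all named genes. Gnrhr, the GnRH receptor, rose by 1.12 ± 0.17 (limma adjusted p = 0.0215), and Plau, the urokinase plasminogen activator, fell by 0.85 ± 0.11 (limma adjusted p = 0.0144). The collagenase gene Mmp13 had 4.17, 4.15 and 4.15 on the GnRH arrays, against 4.58, 4.56 and 4.64 on the control arrays (-0.43, limma adjusted p = 0.0540). Mmp13 lay below the median of every array, and without detection calls it cannot be said whether it lay above background. Tgfb1 had a log2 fold change of 0.37 (limma adjusted p = 0.0984). Control 3 was the lowest array for 2 of these 26 genes, against 21.0% of all named genes. Dcn in this list is also a fibroblast marker, and Gnrhr and Fshb are also pituitary markers.

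In the list of other immediate early genes the median log2 fold change was 0.078, and 0 of 27 passed the threshold, with 13 (48.1%) at an unadjusted p under 0.05, against 13.2% of all named genes. Klf4, Cebpb, Sik1 and Cebpd had the smallest p-values, at 0.55, 1.34, 0.60 and 0.59, with limma adjusted p-values from 0.0534 to 0.141. Control 3 was the lowest array for 14 of these 27 genes, against 21.0% of all named genes, and lay below controls 1 and 2 by a median of -0.24 on the log2 scale. Cebpb, whose protein is also of the bZIP class, had 8.35, 8.94 and 7.51 on the GnRH arrays, against 6.88, 7.07 and 6.84 on the control arrays. It thus shared with Jund the order of the GnRH arrays, with GnRH 2 highest and GnRH 3 lowest.

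**Figure D4:**
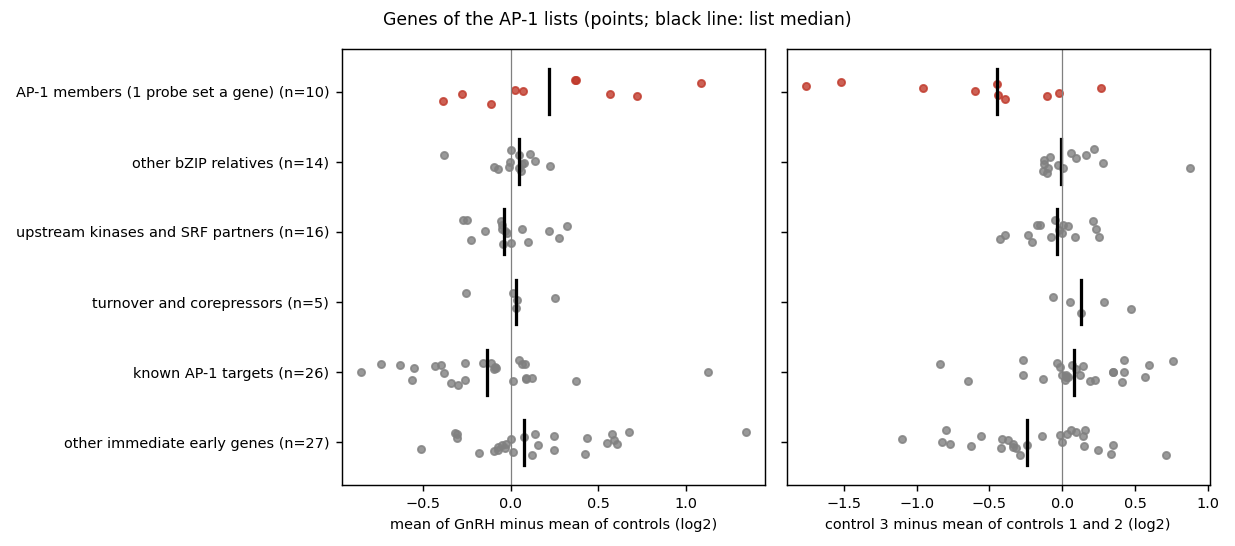
Mean of GnRH minus mean of controls (left) and control 3 minus the mean of controls 1 and 2 (right), both in log2 units, for the 10 members (red) and the genes of the 5 lists (grey), 1 point a gene by its brightest probe set; black lines are medians. On the right, members and other immediate early genes have medians of -0.45 and -0.24, while the AP-1 targets have 0.082.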

How the data were processed

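Per the labels' protocols, Trizol and a spin column yielded the total RNA, from which biotinylated cRNA was made for 1-colour arrays. The deposited values are intensities on a linear scale, made with RMA per the submitters' processing notes; its software and filters were not stated in the sources used. The table held 31042 probe sets on 6 arrays, without detection calls. The small number of arrays limits precision.

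Intensities were put on the log2 scale with no pseudocount and tested 2-sided in R 4.3.3 by lmFit and eBayes of limma 3.58.1, without covariates or filters, with Benjamini-Hochberg adjustment over all probe sets and a threshold of 0.05. The script was tested on simulated data. Genes were named from the array annotation, updated by gene identifier against the GRCr8 table: 20826 probe sets had 1 symbol, 436 several and 9780 none. Named were every member, up to 4 genes a list with the smallest p-values, the 3 genes nearest to Fos, Junb, Jund, Fosl2 and Atf3, and Xist and Eif2s3y. Other genes, in the last part, were chosen after their values were seen. The members and lists were chosen with earlier results of these data known. Marker levels were compared as sums of linear intensities.

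Alternatives were median centring, quantile normalization, cyclic loess, 16 added before log2, dim probe sets left out, an intensity trend, robust variances, array weights, a replicate block, each array left out, controls 1 and 2 left out, a threshold of 0.10 and the mean of a gene's probe sets.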

Additional observations from a re-analysis of the deposited data

How the results depend on the processing

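Of 144 probe sets past the threshold, the count became 90 with quantile normalization, 93 with cyclic loess, 74 with 16 added before log2, 3020 with array weights, 265 with controls 1 and 2 left out, 341 at a threshold of 0.10 and 20 to 2309 with 1 array left out (69, 28 and 2309 without controls 1, 2 and 3; 51, 20 and 65 without GnRH 1, 2 and 3). Of 0 member probe sets past it, the count became 4 with array weights, 1 with the replicate block, 5 with controls 1 and 2 left out, 1 at 0.10 and 0 to 3 with 1 array left out. The replicate block called 215 probe sets and Jund 1393138_at (limma adjusted p = 0.0124). Same-numbered samples deviated from their group means with correlations of 0.159, -0.049 and 0.156, so the numbers were not taken as pairs. Array weights, lowest for control 3 (0.298), called Jund 1393138_at (0.997), Jund 1375768_at (-0.32), Fosl2 1387530_a_at (0.40) and Atf3 (-0.36). These calls carry the limit given above for the Xist and Eif2s3y division.

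Of 254 values over the member probe sets and these alternatives, 221 kept direction and side of the threshold, 15 kept direction and newly passed, and 18 turned. Fos 1371283_at turned to 0.010 with median centring, 0.012 with cyclic loess, 0.025 with array weights, 0.044 with controls 1 and 2 left out, and ran from -0.052 to 0.064 with 1 array left out. Fos 1375043_at turned to -0.025 with quantile normalization, -0.030 with array weights, and ran from -0.079 to 0.17. Maff turned to -0.056 with quantile normalization, -0.021 with cyclic loess, -0.19 with array weights, and ran from -0.18 to 0.18. Fosb turned to -0.061 with array weights and ran from -0.21 to 0.67, and Jun 1369788_s_at ran from -0.031 to 0.52. With 1 array left out, Jund 1387762_s_at ran from 0.61 to 1.68, Fosl2 1383860_at from 0.22 to 0.52 and Fosl1 from -0.46 to -0.24. Mafk turned to 0.15 with controls 1 and 2 left out. None of the turned values passed. Jund 1393138_at ran from 0.86 to 1.39 over 16 alternatives, with limma adjusted p from 0.00999 to 0.330. With the mean of all its probe sets, Jund had 0.63 and Jun 0.60. Apart from the settings named, the cause of these changes was not tested.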

Other observations

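Low values confined to control 3 were also seen in probe sets of other genes. After the values were seen, probe sets were listed whose control 3 value lay over 0.9 below the mean of controls 1 and 2 on the log2 scale while the GnRH mean lay within 0.3 of it. There were 13, for 11 different genes, and 5 of the 13 were the members described above (Fosb, 3 of Jun and Junb). The others included Egr1, another immediate early gene, with 10.36, 10.13 and 10.48 on the GnRH arrays, against 10.58, 10.55 and 9.47 on the control arrays. Hspb1, a small heat shock protein, had 9.68, 9.52 and 9.63 on the GnRH arrays, against 9.59, 9.97 and 8.86 on the control arrays. Adamtsl4, Smarca4, Zfp574, Ubn1, Sh2d5 and Akap8l completed the list. It was chosen on these values, with both cuts close to the members' own values. Its length and the members' share of it are thus no result, and no test was made.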
